A study of Mus musculus with 12 samples.

Results

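The core circadian clock genes were examined in the left ventricle of the mouse heart: Arntl, Clock, Npas2, Cry1, Cry2, Per1, Per2, Per3, Nr1d1 and Nr1d2. They were taken as named genes, without a cut-off on their values, but were chosen with earlier results of these data known. They are 10 of the 18193 genes that have a probe set with 1 gene symbol on the array. The array, an Affymetrix whole-genome mouse chip, reads them through 23 probe sets, of which 18 lay at or above the filter on dim signal and 5 below it. Male C57BL/6 mice, 12 in all, gave 1 heart and 1 array each, with 3 mice in each of 4 groups. TG mice carry ATF6-MER, in which the endoplasmic reticulum (ER) stress transcription factor ATF6 is joined to a hormone-binding domain of the mouse estrogen receptor that tamoxifen activates, and NTG mice are their littermates without it. Both genotypes were given tamoxifen or vehicle, which makes the groups NTG vehicle, NTG tamoxifen, TG vehicle and TG tamoxifen. All mice are given as about 30 weeks old, apart from TG tamoxifen 1, given as 40 weeks. The sources used here give neither the dose and length of treatment, nor the promoter of the transgene, nor the hour of day at which hearts were taken.

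The clock is a feedback loop of transcription that most cells run. ARNTL (also called BMAL1) pairs with CLOCK, or with the related NPAS2, binds DNA at E-boxes and switches on the Per, Cry and Nr1d genes. PER and CRY proteins return to the nucleus and inhibit that pair, while the nuclear receptors NR1D1 and NR1D2 (REV-ERB alpha and beta) repress Arntl through ROR elements. In the heart, as in other organs, these transcripts cycle over the day, with Arntl RNA high at the hours when Nr1d and Per RNAs are low, and the cardiomyocyte clock is known for timing the daily use of fuels.

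Before the clock genes, the labels were checked on 3 genes. The Esr1 probe set, which can read the receptor domain of the fusion, stood at 16.66 to 18.25 on the log2 scale on the 6 TG arrays and at 7.15 to 10.88 on 5 NTG arrays. It stood at 17.72, within the TG range, on the array labelled NTG tamoxifen 1. Hspa5, the main ER chaperone and an ATF6 target, was at 18.37 to 18.47 in TG tamoxifen, at 18.05 on the array labelled NTG tamoxifen 1, and at 15.49 to 16.39 on all other arrays. Atf6 itself was at 12.00 to 12.16 in TG tamoxifen and at 12.67 to 13.74 elsewhere. TG vehicle 3 carries a treatment field that says tamoxifen although its title says vehicle. Its Hspa5 level, 15.94, lay between those of the other TG vehicle arrays, 16.39 and 15.76. Groups follow the titles, and the counts of clock genes called that change without these arrays are given without them too. All 8 ventricular cardiomyocyte markers passed the filter, as the tissue label has it. Of 4 atrial markers, Myl7, Myl4 and Sln were highest on NTG tamoxifen 2, at 15.12, 14.94 and 13.34. On the other arrays they ran from 8.76 to 12.50, 10.70 to 13.40 and 6.39 to 10.79. Nppa, at 16.42 on NTG tamoxifen 2, was highest on TG tamoxifen 2, at 17.40. Whether the hearts differed in atrial tissue was not tested.

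Promoter windows of 300 bases around the start site were matched for 9 of the 10 genes in RefSeq (GRCm38.p6). Per2 was named only. The 4 below are shown because they hold letters of the motifs through which the loop is known to run, with every match in capitals, 5′ to 3′ on the strand of the gene. Arntl is chr7:113207261-113207560 on the plus strand, Cry1 is chr10:85185005-85185304 on the minus strand, Per1 is chr11:69098699-69098998 on the plus strand and Per3 is chr4:151044616-151044915 on the minus strand.
Arntl: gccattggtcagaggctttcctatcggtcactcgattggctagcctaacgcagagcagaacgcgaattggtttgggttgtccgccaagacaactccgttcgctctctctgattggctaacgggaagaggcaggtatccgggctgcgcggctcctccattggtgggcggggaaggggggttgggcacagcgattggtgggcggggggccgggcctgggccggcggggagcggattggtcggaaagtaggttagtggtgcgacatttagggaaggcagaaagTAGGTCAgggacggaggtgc
Cry1: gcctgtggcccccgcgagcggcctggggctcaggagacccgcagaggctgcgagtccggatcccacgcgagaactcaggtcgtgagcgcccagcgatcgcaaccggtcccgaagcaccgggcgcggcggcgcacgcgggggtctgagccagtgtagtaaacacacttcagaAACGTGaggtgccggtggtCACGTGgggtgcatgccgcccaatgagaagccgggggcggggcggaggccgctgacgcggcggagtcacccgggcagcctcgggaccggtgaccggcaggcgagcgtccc
Per1: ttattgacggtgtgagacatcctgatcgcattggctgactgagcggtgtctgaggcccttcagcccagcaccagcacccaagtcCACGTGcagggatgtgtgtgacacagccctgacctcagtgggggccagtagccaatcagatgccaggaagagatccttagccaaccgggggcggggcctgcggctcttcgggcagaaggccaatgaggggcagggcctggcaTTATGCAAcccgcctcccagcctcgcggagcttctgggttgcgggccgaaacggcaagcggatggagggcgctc
Per3: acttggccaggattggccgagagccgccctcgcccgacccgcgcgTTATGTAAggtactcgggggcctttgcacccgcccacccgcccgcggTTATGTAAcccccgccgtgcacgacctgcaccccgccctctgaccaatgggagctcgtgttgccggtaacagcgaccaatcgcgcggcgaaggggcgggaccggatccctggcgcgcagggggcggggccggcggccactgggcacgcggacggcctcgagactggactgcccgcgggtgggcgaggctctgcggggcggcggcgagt
In Arntl the capitals mark TAGGTCA, the core that REV-ERB and ROR proteins bind, 31 bases after the start site. In Cry1 they mark the E-box CACGTG, 60 bases before the start site, and the variant E-box CACGTT, read here from the other strand, 79 bases before it. In Per1 they mark an E-box 166 bases before the start site and the D-box TTATGNAA 24 bases before it, and in Per3 a pair of D-boxes 205 and 158 bases before it. Both strands were searched, and the E-box and its variant cannot match the same 6 bases. Over all 32851 windows, CACGTG was in 7.15%, CACGTT in 4.68%, TAGGTCA in 2.61% and TTATGNAA in 3.38%. Of the 13 windows of the 9 genes, CACGTG was in that of Cry1 and in 1 of Per1, and CACGTT in those of Cry1, Cry2 and Nr1d1. TAGGTCA was in 1 of Arntl, and TTATGNAA in 1 of Per1 and in that of Per3. The ATF6 site core TGACGTG (2.01% of all windows) and the ER stress response element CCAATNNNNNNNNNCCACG (0.119%) had 0 matches in these windows, which says no more than that these letters are not in them.

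Intensities were read as log2(value + 16) after quantile normalization, and each value below is a level on that scale unless it is called a difference. The probe set with the highest mean stood for a gene. Of the 10 genes, 9 passed the filter and were tested. Npas2 was below it. A call is an adjusted p (limma, Benjamini-Hochberg over 11166 genes) under 0.05, and ± beside a difference is its standard error with 3 arrays a group. In RNA of whole ventricle, fewer cells of a type and less RNA per cell cannot be told apart.

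**Figure D1:**
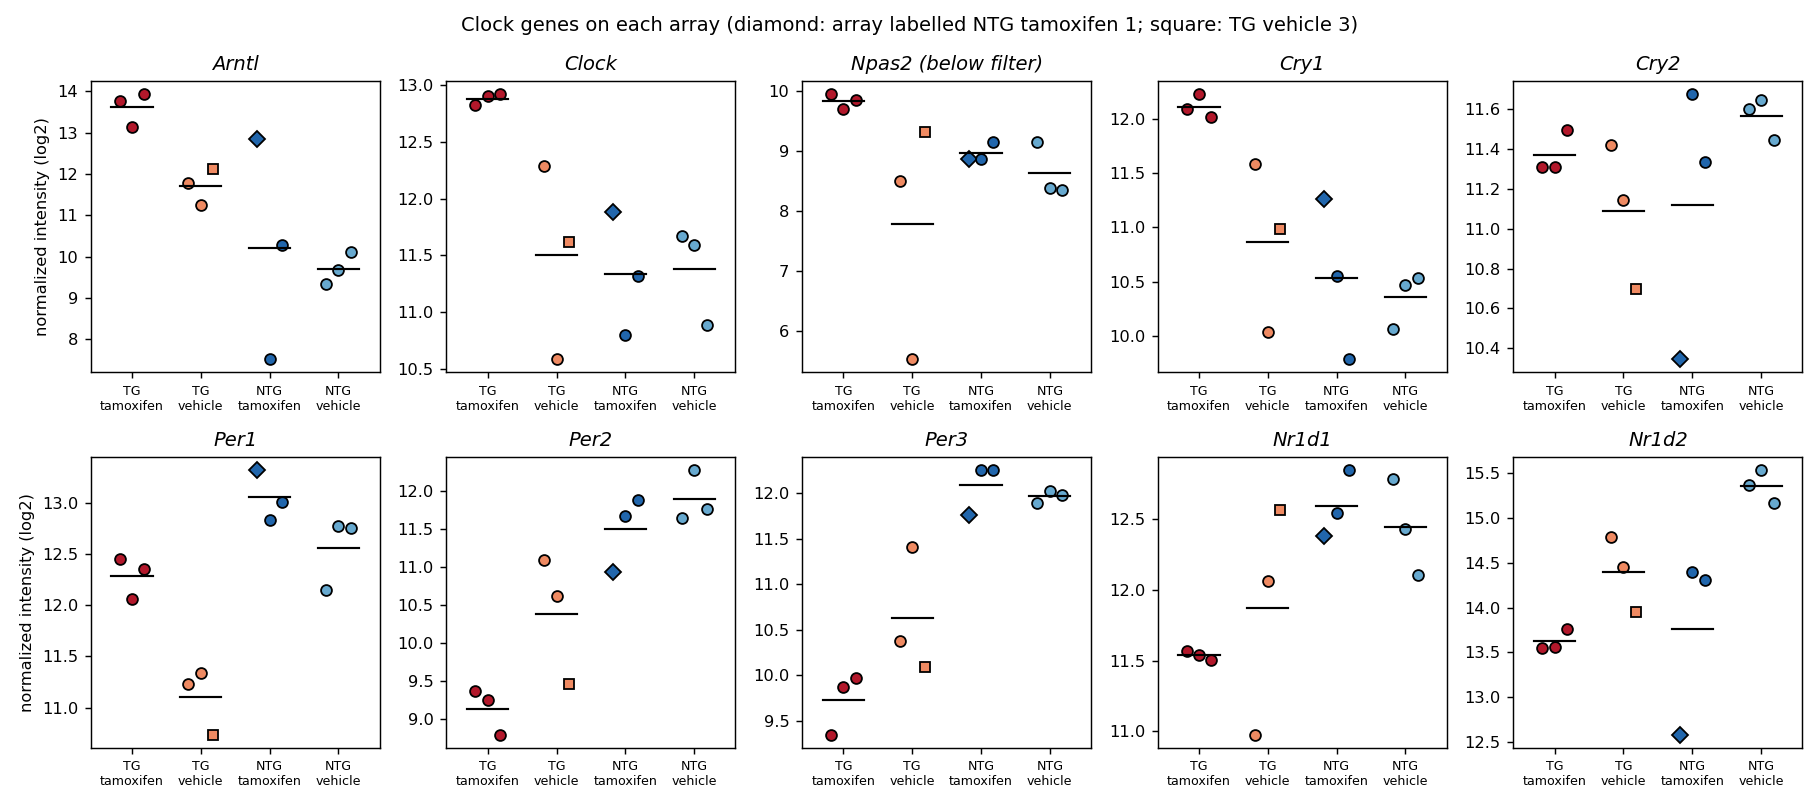
Log2 normalized intensity of the probe set that stands for each of the 10 clock genes, with 1 point per array, the 4 groups along the horizontal axis and a bar at each group mean; axes are per gene. The array labelled NTG tamoxifen 1 is a diamond and TG vehicle 3 a square. For most genes TG tamoxifen points lie close together, and for Arntl, Clock, Npas2 and Cry1 they lie above all other points.

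The first comparison, TG tamoxifen against TG vehicle, asked how the clock genes differed once the drug had switched the fusion on. Per1, Clock and Cry1 rose and Per2 fell. Arntl showed a larger difference than any of these, 1.89 ± 0.94, but did not pass the test. In all, 4 of the 9 tested genes were called, 3 higher and 1 lower, where 24.8% of all tested genes were called. The median size of the difference was 1.18 on the log2 scale over the 9 genes and 0.42 over all genes tested. The arrays of both groups did not overlap for 7 of the 9, against 44.2% of all genes. TG tamoxifen 1, the array with another age, bears on this count: without it 1 gene was called (Per1), where 13.1% of all genes were. The count was also 1 without TG tamoxifen 2 (15.6% of all genes), TG tamoxifen 3 (16.6%) or TG vehicle 2 (15.2%). Without TG vehicle 3, whose labels conflict, 3 were called (18.5% of all genes), Per1 higher and Per2 and Per3 lower. Without the array labelled NTG tamoxifen 1, which is in neither group but shares in the estimate of the spread, 7 were called (29.3% of all genes), Arntl, Clock, Cry1 and Per1 higher and Per2, Per3 and Nr1d2 lower.

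Among the activators, Arntl encodes the partner that the loop cannot run without. Its level was 13.77, 13.14 and 13.93 in TG tamoxifen, 11.79, 11.24 and 12.12 in TG vehicle, 12.85, 7.53 and 10.29 in NTG tamoxifen, and 9.33, 9.67 and 10.10 in NTG vehicle. The TG tamoxifen arrays were the highest of the 12, and the TG vehicle arrays lay above all NTG arrays apart from the one labelled NTG tamoxifen 1. That array was 3.94 above the mean of the other NTG tamoxifen arrays, and the group's SD was 2.66, against 0.39 to 0.44 in the other groups. NTG tamoxifen 2, at 7.53, was the lowest of the 12 arrays. With the spread these arrays made, the difference of TG tamoxifen from TG vehicle, 3.72-fold, had an interval of -0.17 to 3.96 on the log2 scale. Its adjusted p was 0.162. Leaving out the array labelled NTG tamoxifen 1 gave 1.89 ± 0.57, with an adjusted p of 0.0307 (0.0071 to 0.519 over the alternatives). Leaving out NTG tamoxifen 2 instead also brought the difference past the threshold. TG tamoxifen exceeded NTG tamoxifen by 3.39 ± 0.94 (10.5-fold, adjusted p = 0.0145), and by 4.70 ± 0.64 without the array labelled NTG tamoxifen 1.

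A further Arntl probe set, 1457740_at, gave another order. It read 10.65, 10.55 and 10.78 in TG tamoxifen, 10.70, 10.67 and 10.67 in TG vehicle, 10.91, 9.94 and 9.96 in NTG tamoxifen, and 9.15, 8.36 and 7.88 in NTG vehicle. Both TG groups sat together, and NTG vehicle was below every other array. Tested among all 45037 probe sets singly, TG vehicle exceeded NTG vehicle by 2.21 ± 0.35 on this probe set (adjusted p = 0.0460), while TG tamoxifen differed from TG vehicle by -0.02 ± 0.35. NTG tamoxifen exceeded NTG vehicle by 1.80 ± 0.35 on it, with an adjusted p of 0.0996. The probe sets therefore differ on where Arntl was high: the standing one separates TG tamoxifen from TG vehicle and this one does not. With the mean of the 2 probe sets, TG tamoxifen exceeded NTG tamoxifen by 1.89 ± 0.56 and was called.

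Clock, the DNA-binding partner of ARNTL, was at 12.83, 12.90 and 12.92 in TG tamoxifen and at 12.29, 10.59 and 11.62 in TG vehicle. It was at 11.88, 10.80 and 11.32 in NTG tamoxifen and at 11.67, 11.59 and 10.89 in NTG vehicle. TG tamoxifen lay above every other array, and the other groups overlapped. Clock rose by 1.39 ± 0.40 against TG vehicle (2.61-fold, adjusted p = 0.0269) and by 1.55 ± 0.40 against NTG tamoxifen (2.93-fold, adjusted p = 0.00947). Its other 3 probe sets were less clear, with differences from TG vehicle between -0.36 and 0.68, of which 1 was above 0. The call against TG vehicle was lost without TG vehicle 3 (1.45 ± 0.46, adjusted p = 0.0530) and with the mean of the probe sets (0.42 ± 0.23). Against NTG tamoxifen that mean gave 0.73 ± 0.23 and was called. Npas2, which can replace Clock in the pair, was below the filter on dim signal. Its standing probe set was at 9.94, 9.69 and 9.85 in TG tamoxifen, 8.49, 5.53 and 9.31 in TG vehicle, 8.86, 8.87 and 9.14 in NTG tamoxifen, and 9.15, 8.38 and 8.34 in NTG vehicle. TG tamoxifen was again above all other arrays on this probe set. With a mean of 8.80 over the 12 arrays, the gene was below the filter of 9.42 and was not among the genes tested. When all probe sets were tested singly, this one differed from TG vehicle by 2.05 ± 0.76 (adjusted p = 0.173). The other Npas2 probe set, 1421036_at, was dimmer and gave another order. It read 6.93, 7.54 and 7.79 in TG tamoxifen, and 8.90, 7.42 and 8.27 in NTG vehicle, the group with the highest mean.

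The Per genes encode inhibitors of the loop, and in TG tamoxifen against TG vehicle Per1 rose where Per2 fell. Per1 was at 12.45, 12.06 and 12.35 in TG tamoxifen, 11.23, 11.34 and 10.74 in TG vehicle, 13.32, 12.83 and 13.00 in NTG tamoxifen, and 12.15, 12.77 and 12.75 in NTG vehicle. Every TG vehicle array was below all other arrays, and the array labelled NTG tamoxifen 1 was the highest of the 12. Per1 rose by 1.18 ± 0.23 in TG tamoxifen against TG vehicle (2.27-fold, adjusted p = 0.00573). Against NTG tamoxifen it fell by 0.77 on the log2 scale, with an SE of 0.23 and an adjusted p of 0.0221. That last difference was -0.63 ± 0.25 without the array labelled NTG tamoxifen 1 and was not called (adjusted p = 0.0640, and 0.0151 to 0.0886 over the alternatives).

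Per2 was at 9.37, 9.25 and 8.80 in TG tamoxifen, 11.09, 10.63 and 9.46 in TG vehicle, 10.93, 11.68 and 11.88 in NTG tamoxifen, and 11.65, 12.28 and 11.77 in NTG vehicle. TG tamoxifen was below all other arrays, with TG vehicle 3 next above it. Per2 was 2.38-fold lower in TG tamoxifen than in TG vehicle (difference -1.25 ± 0.39, adjusted p = 0.0363) and 5.13-fold lower than in NTG tamoxifen (-2.36 ± 0.39, adjusted p = 0.000965). Its other probe sets differed from NTG tamoxifen by -1.38 ± 0.44 and 0.79 ± 0.55, neither called. With the mean of the probe sets neither Per2 call passed, at -0.75 ± 0.37 against TG vehicle and -0.98 ± 0.37 against NTG tamoxifen (adjusted p = 0.0608). Per3, a PER protein that is less needed for the rhythm itself, was at 9.35, 9.87 and 9.97 in TG tamoxifen, 10.38, 11.41 and 10.09 in TG vehicle, 11.76, 12.26 and 12.26 in NTG tamoxifen, and 11.89, 12.02 and 11.99 in NTG vehicle. TG arrays lay below all NTG arrays, and TG tamoxifen below TG vehicle. Per3 was 5.15-fold lower in TG tamoxifen than in NTG tamoxifen (-2.36 ± 0.31, adjusted p = 0.000379). Its difference from TG vehicle, -0.90 ± 0.31, missed the threshold with an adjusted p of 0.0521. A further Per3 probe set, 1441445_at, also passed for TG tamoxifen against NTG tamoxifen when all probe sets were tested (-2.23 ± 0.47, adjusted p = 0.0135). The other 4 did not, with differences of -1.01, -0.65 and -0.54, and of 1.21 in the other direction. The mean of the probe sets gave -0.93 ± 0.20, which was called.

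Of the cryptochromes, which bind and silence the CLOCK and ARNTL pair, Cry1 rose and Cry2 was not called. Cry1 was at 12.09, 12.23 and 12.02 in TG tamoxifen, 11.59, 10.03 and 10.99 in TG vehicle, 11.26, 10.55 and 9.79 in NTG tamoxifen, and 10.07, 10.47 and 10.53 in NTG vehicle. TG tamoxifen was above every other array. Cry1 rose by 1.24 ± 0.40 against TG vehicle (2.37-fold, adjusted p = 0.0411) and by 1.58 ± 0.40 against NTG tamoxifen (2.99-fold, adjusted p = 0.00887). The first call was lost under 15 of the 25 alternatives, among them leaving out TG vehicle 3 (adjusted p = 0.0754) and leaving out TG vehicle 2 (0.83 ± 0.37). Cry2 was at 11.31, 11.31 and 11.49 in TG tamoxifen, 11.42, 11.15 and 10.70 in TG vehicle, 10.35, 11.68 and 11.34 in NTG tamoxifen, and 11.60, 11.65 and 11.45 in NTG vehicle. The array labelled NTG tamoxifen 1 was the lowest of the 12 for Cry2, and the TG vehicle arrays lay below the NTG vehicle arrays. Its difference in TG tamoxifen against TG vehicle was 0.29 ± 0.30, with an interval of -0.37 to 0.94, and it was called in 0 of the 4 comparisons between groups. Whether the response of Cry1 differed from that of Cry2 was not tested. Cry1 and Per1, whose windows above hold CACGTG, both rose in TG tamoxifen against TG vehicle, and against NTG tamoxifen Cry1 was higher and Per1 lower.

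Nr1d1 and Nr1d2 encode the repressors of Arntl. Nr1d1 was at 11.57, 11.54 and 11.50 in TG tamoxifen, 10.98, 12.06 and 12.57 in TG vehicle, 12.38, 12.55 and 12.85 in NTG tamoxifen, and 12.79, 12.43 and 12.11 in NTG vehicle. The TG tamoxifen arrays agreed to within 0.1, while TG vehicle ran from below them to above them. Nr1d1 fell by 1.05 against NTG tamoxifen (SE 0.33, 2.08-fold, adjusted p = 0.0265), and its difference from TG vehicle was -0.33 ± 0.33 (adjusted p = 0.503). Nr1d2 was at 13.55, 13.56 and 13.76 in TG tamoxifen, 14.79, 14.45 and 13.95 in TG vehicle, 12.58, 14.40 and 14.31 in NTG tamoxifen, and 15.37, 15.54 and 15.18 in NTG vehicle. NTG vehicle was above every other array, and the array labelled NTG tamoxifen 1 was the lowest of the 12. Its difference in TG tamoxifen against TG vehicle, -0.77 ± 0.40, did not pass (adjusted p = 0.183), and TG tamoxifen differed from NTG tamoxifen by -0.14 ± 0.40.

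**Figure D2:**
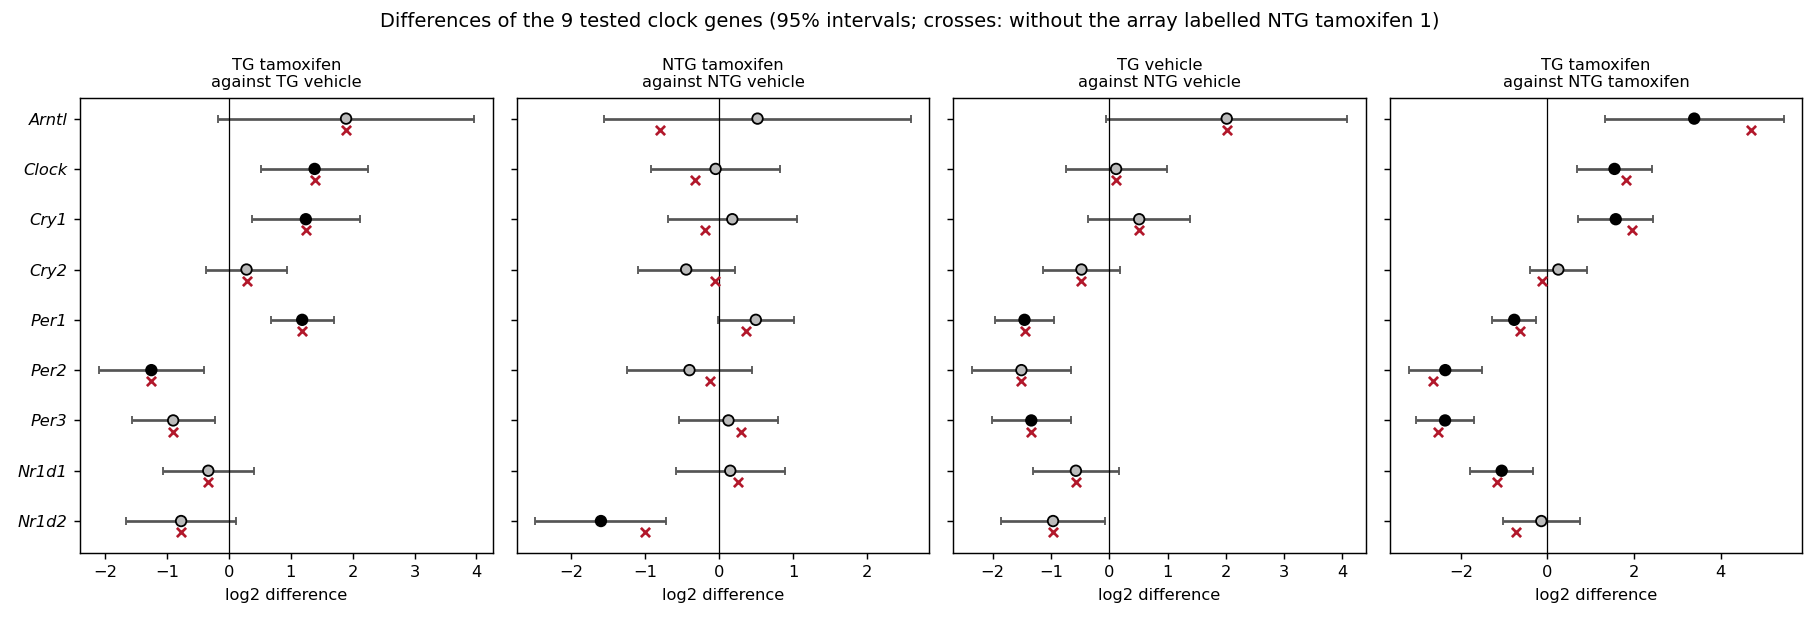
Log2 differences (horizontal axis) of the 9 tested clock genes in the 4 comparisons between groups, with 95% intervals; filled circles were called at an adjusted p under 0.05, and crosses give the difference without the array labelled NTG tamoxifen 1. In TG tamoxifen against NTG tamoxifen, Arntl, Clock and Cry1 lie above 0 and all 3 Per genes and Nr1d1 below it; the cross for Arntl in NTG tamoxifen against NTG vehicle is on the other side of 0.

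TG tamoxifen against NTG tamoxifen, the comparison of genotypes on the drug, held the most calls. Arntl, Clock and Cry1 were higher in TG tamoxifen, and Per1, Per2, Per3 and Nr1d1 were lower. These are 7 of the 9 tested genes, where 39.5% of all genes were called, and the groups did not overlap for the same 7, against 51% of all genes. The median size of the difference was 1.55, against 0.54 over all genes. Without the array labelled NTG tamoxifen 1, 7 were again called (42.9% of all genes): Per1 was lost and Nr1d2 gained, with a difference of -0.73 ± 0.23 and an adjusted p of 0.0281 (0.00964 to 0.921 over the alternatives). Cry1 and Per3 passed under all 25 alternatives of processing, Clock and Per2 under 24, Arntl under 23, Per1 under 20 and Nr1d1 under 17. Nr1d1 was not called without any 1 of the TG tamoxifen arrays or without NTG tamoxifen 2 or 3, with adjusted p-values of 0.0552 to 0.0897 there.

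NTG tamoxifen against NTG vehicle compared the drug with vehicle in mice labelled as without the transgene, and includes the array labelled NTG tamoxifen 1, whose Esr1 and Hspa5 levels go against that label. Nr1d2 fell by 1.60 (SE 0.40, 3.02-fold, adjusted p = 0.0492), and this was the 1 call among the 9 genes, where 4.32% of all genes were called. The difference of Nr1d2 without the array labelled NTG tamoxifen 1 was -1.01 ± 0.23, called with an adjusted p of 0.0464 (0.0218 to 0.55 over the alternatives). Without TG vehicle 3, which shares only in the estimate of the spread, 0 genes of the 9 were called (3.46% of all genes). Per1 was higher on every NTG tamoxifen array than on any NTG vehicle array, by 0.50 ± 0.23 on average, but did not pass (adjusted p = 0.225). Those were the 2 of 9 genes without overlap, against 30.2% of all genes. The median size of the difference, 0.40, compares with 0.31 over all genes. Arntl differed by 0.52 ± 0.94 with all arrays and by -0.79 ± 0.64 without the array labelled NTG tamoxifen 1. The sign on the standing probe set thus turned when NTG tamoxifen 2, at 7.53, and NTG tamoxifen 3, at 10.29, were the arrays left. NTG tamoxifen 3 lay above every NTG vehicle array, of which the highest was 10.10. Leaving out NTG tamoxifen 2 instead gave 1.86. On the further Arntl probe set, NTG tamoxifen 2 and 3, at 9.94 and 9.96, lay above every NTG vehicle array, of which the highest was 9.15.

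TG vehicle against NTG vehicle gave the transgene without the drug. These groups also differed in a measure of RNA degradation, given further below. Per1 fell by 1.46 (SE 0.23, 2.74-fold, adjusted p = 0.0190) and Per3 by 1.34 (SE 0.31, 2.53-fold, adjusted p = 0.0413). These were the 2 calls among the 9 genes, where 3.63% of all genes were called. Per2, at -1.51 ± 0.39, was as far from 0 but missed the threshold (adjusted p = 0.0544), and Arntl, at 2.02 ± 0.94, did not pass (adjusted p = 0.227). The groups did not overlap for 6 of the 9 genes, Arntl above and Cry2, Per1, Per2, Per3 and Nr1d2 below, against 30.8% of all genes. The median size of the difference was 0.97, against 0.31 over all genes. Without the array labelled NTG tamoxifen 1, 4 genes were called lower (7.28% of all genes), Per1, Per2, Per3 and Nr1d2. Without TG vehicle 3, 0 were called, where 0.0358% of all genes were. The count was also 0 without NTG vehicle 2 (0.0179%) or NTG vehicle 3 (0.107%), and 1 without NTG vehicle 1, NTG tamoxifen 3 or any 1 of the TG tamoxifen arrays (0.475% to 3.1%).

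Whether tamoxifen acted differently in the genotypes is the difference between its effects in TG and NTG. For 0 of the 9 clock genes was that difference called, where 14.3% of all genes were, and 2 of them, Clock and Per3, had an unadjusted p under 0.05. The estimates were 1.43 ± 0.56 for Clock (adjusted p = 0.102) and -1.02 ± 0.44 for Per3 (adjusted p = 0.127). Without the array labelled NTG tamoxifen 1, Arntl was called (2.69 ± 0.86, adjusted p = 0.0459, and 0.0459 to 0.986 over the alternatives), where 22.8% of all genes were. NTG tamoxifen then rested on 2 arrays, at 7.53 and 10.29 on the standing probe set. The further Arntl probe set, 1457740_at, had the other sign. With all arrays and all probe sets tested singly, it gave -1.82 ± 0.50 (adjusted p = 0.117). Clock was called without TG vehicle 1 (1.83 ± 0.50, adjusted p = 0.0296), and the share of all genes called there is not given. Per2 and Per3 were called lower without both TG vehicle 3 and the array labelled NTG tamoxifen 1 (20.2% of all genes). Apart from these genes in these settings, the calls in TG above are not shown to differ from the effect of the drug in NTG. The comparisons of either TG group share arrays, and their values are set side by side without a measure of their likeness.

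**Figure D3:**
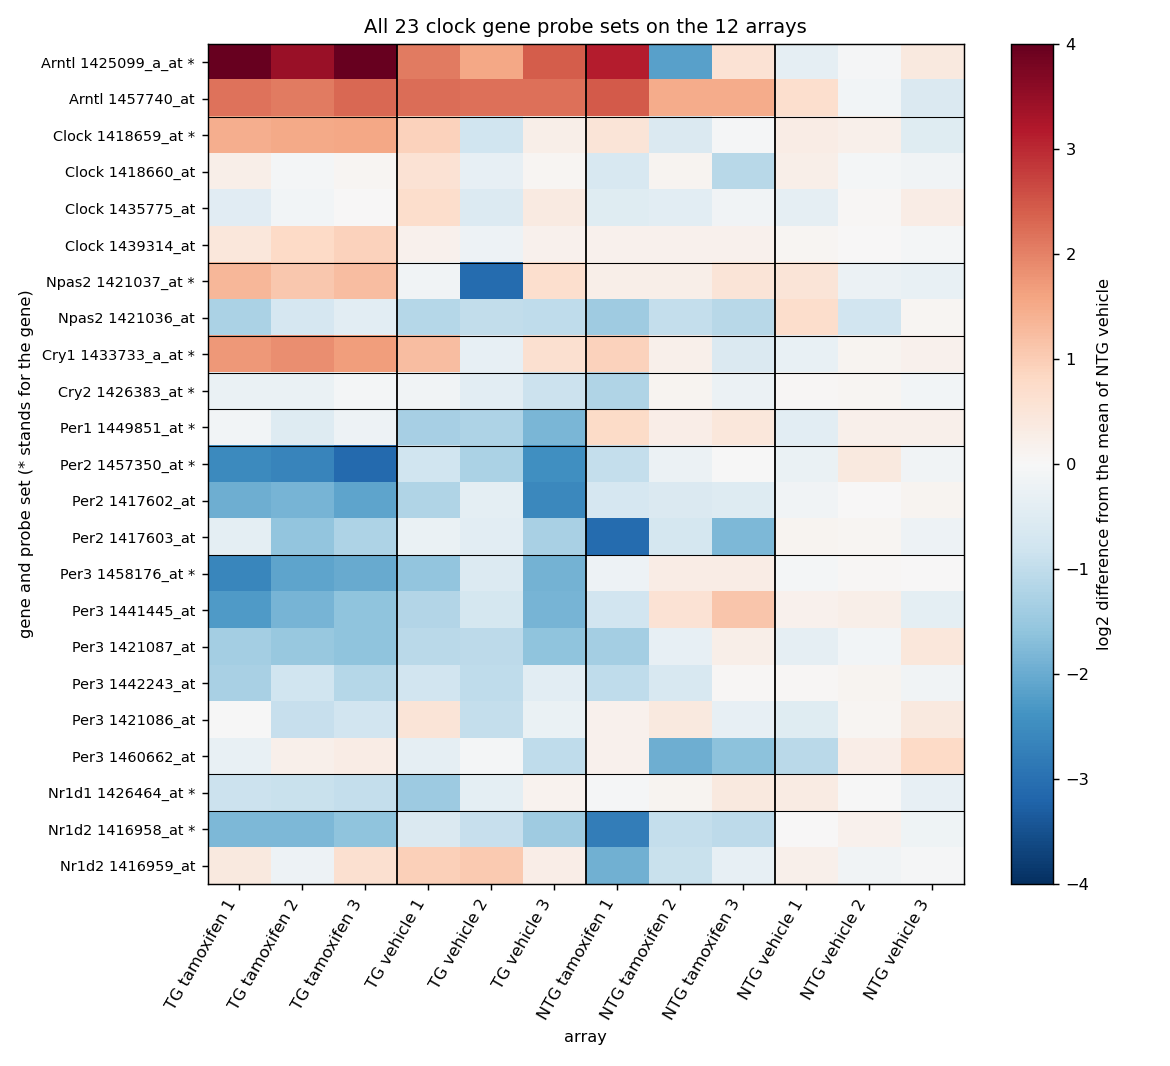
Log2 difference of every probe set of the 10 genes (rows) on each of the 12 arrays (columns) from that probe set's NTG vehicle mean; red is higher and blue lower, and an asterisk marks the probe set that stands for the gene. Per2 and Per3 rows are mostly blue on the 6 TG arrays, and the rows of Arntl are red there and on the array labelled NTG tamoxifen 1. The Arntl row 1457740_at is also red on NTG tamoxifen 2 and 3, and the standing Arntl row is paler red on NTG tamoxifen 3.

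The remaining 13 probe sets, which do not stand for their gene, were used to see how far the picture depends on the probe set. In TG tamoxifen against TG vehicle 9 of the 13 differed in the same direction as the standing one, in NTG tamoxifen against NTG vehicle 8, in TG vehicle against NTG vehicle 12, and in TG tamoxifen against NTG tamoxifen 10. Tested singly with all probe sets, 1 of the 23 was called in TG tamoxifen against TG vehicle (Per1, where 3.1% of all probe sets were called), 0 in NTG tamoxifen against NTG vehicle (0.0666%), 1 in TG vehicle against NTG vehicle (the further Arntl one, 0.198%) and 5 in TG tamoxifen against NTG tamoxifen (Clock, Cry1, Per2 and both named Per3 ones, 13.7%). For the difference between the tamoxifen effects it was 0 of 23 (0.0355%). The probe sets of Nr1d2 differed in sign. Its other one, 1416959_at, was 1.33 ± 0.41 higher in TG tamoxifen than in NTG tamoxifen (adjusted p = 0.0583), where the standing one differed by -0.14.

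The order of the group means falls into a few kinds. Arntl and Cry1 ran from TG tamoxifen through TG vehicle and NTG tamoxifen to NTG vehicle, and for both the arrays of TG tamoxifen were apart from the next group while the lower neighbours in the order overlapped. Clock had the same upper end, with the NTG groups in the other order and only 0.05 apart. Per3 and Nr1d1 ran the opposite way, from NTG tamoxifen through NTG vehicle and TG vehicle to TG tamoxifen. For Per3 the NTG groups overlapped and both lower steps, of 1.34 and 0.90, separated the arrays, whereas for Nr1d1 all neighbours overlapped. Per2 had the same lower end with the NTG groups exchanged, and its TG tamoxifen arrays were apart from TG vehicle. Per1 ran from NTG tamoxifen through NTG vehicle and TG tamoxifen to TG vehicle, whose arrays were apart from the next group, and Nr1d2 ran from NTG vehicle through TG vehicle and NTG tamoxifen to TG tamoxifen, with NTG vehicle apart from the next group. Cry2 ran from NTG vehicle through TG tamoxifen and NTG tamoxifen to TG vehicle, and all its neighbours overlapped. Npas2 ran from TG tamoxifen, apart from the rest, through NTG tamoxifen and NTG vehicle to TG vehicle. By the median SD over the 10 genes the 3 TG tamoxifen arrays were the most alike. It was 0.12 there, against 0.34 in NTG vehicle, 0.52 in NTG tamoxifen and 0.74 in TG vehicle. The SD was higher in TG vehicle than in TG tamoxifen for 10 of 10 genes. For Per3 it was 0.33 in TG tamoxifen, against 0.07 in NTG vehicle and 0.29 in NTG tamoxifen. For Arntl it was 0.41, against 0.39 in NTG vehicle. The spread over all genes is not given here.

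Likeness of pattern was measured as the root mean square (RMS) difference between centred log2 values over the 12 arrays, and is smaller for genes that vary little. Among the clock genes Clock and Cry1 were closest (0.403), then Per2 and Per3 (0.495), and Arntl and Per2 were farthest apart (2.93). Over 11157 other tested genes, those nearest to Arntl were Manf (0.798), Hmox1 (0.809), 1810014B01Rik (0.843), Atf3 (0.917) and Kpnb1 (0.949), where the median gene was at 1.94. Manf was at 18.08, 18.01 and 17.95 in TG tamoxifen and, like Arntl, was high on the array labelled NTG tamoxifen 1, at 17.79, where NTG tamoxifen 2 and 3 had 13.49 and 14.16. Nearest to Nr1d1 were Chst14 (0.208), Arhgef2 (0.214), Snapc2 (0.246), Lmtk2 (0.252) and Cnnm3 (0.258), with the median gene at 0.681.

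Of the further clock regulators on the list, 16 were tested, and Arntl2 and Fbxl21 were below the filter. In TG tamoxifen against TG vehicle 3 rose and 2 fell, and 11 were not called (all genes: 10.4% higher and 14.4% lower). Gsk3b, a kinase that acts on clock proteins, rose by 1.35 ± 0.22 (adjusted p = 0.00278), Fbxw11, part of a ubiquitin ligase for PER proteins, by 0.78 ± 0.20 (adjusted p = 0.0185) and Timeless, named for the fly clock gene, by 1.14 ± 0.35 (adjusted p = 0.0336). Those that fell were Nampt, which makes the cofactor NAD in a clock-driven step, at -1.43 ± 0.20 (adjusted p = 0.00175), and Usp2, a deubiquitinase of clock proteins whose RNA cycles, at -2.00 ± 0.43 (adjusted p = 0.00864). The median difference of the 16 was -0.22, against -0.07 over all genes. Against NTG tamoxifen 3 were higher and 6 lower in TG tamoxifen (all genes: 18.9% and 20.5%), with Usp2 at -2.93 ± 0.43 and Csnk1e, a kinase of PER proteins, at -0.94 ± 0.18. In NTG tamoxifen against NTG vehicle, where 0.654% of all genes were higher and 3.66% lower, Rorb, a receptor of the ROR family, rose by 1.28 ± 0.31 and Timeless fell by 1.39. In TG vehicle against NTG vehicle (1.39% and 2.24%) Ciart, a repressor of the CLOCK and ARNTL pair, fell by 1.82. The difference between the tamoxifen effects was called for 1 higher and 3 lower (all genes: 7.5% and 6.76%), among them Timeless (2.52 ± 0.49) and Usp2 (-2.03 ± 0.61).

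All 7 clock output factors on the list, which pass the rhythm on to other genes, were tested. In TG tamoxifen against TG vehicle 2 rose and 2 fell (all genes: 10.4% higher and 14.4% lower). Klf15, a transcription factor of cardiac metabolism that cycles in the heart, stood at a mean of 8.55 in TG tamoxifen and 12.02 in TG vehicle, a difference of -3.47 ± 0.40 (adjusted p = 0.00159). Tef, of the family that binds D-boxes, fell by 1.12 (SE 0.25, adjusted p = 0.00882), and Nfil3, which represses through the same D-boxes, rose by 1.28 ± 0.32 (adjusted p = 0.0163). Klf10, a Krüppel-like factor under clock control, rose by 1.40 ± 0.41 (adjusted p = 0.0297). The median of the 7 was -0.88, against -0.07 over all genes. Against NTG tamoxifen 2 were higher and 4 lower (all genes: 18.9% and 20.5%), with a median of -1.35 against -0.06, Klf15 at -3.49 ± 0.40 and Hlf, another D-box factor, at -2.54 ± 0.43. Tef was also called lower in NTG tamoxifen against NTG vehicle (-1.01 ± 0.25, adjusted p = 0.0420) and in TG vehicle against NTG vehicle (-1.23 ± 0.25, adjusted p = 0.0289).

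**Figure D4:**
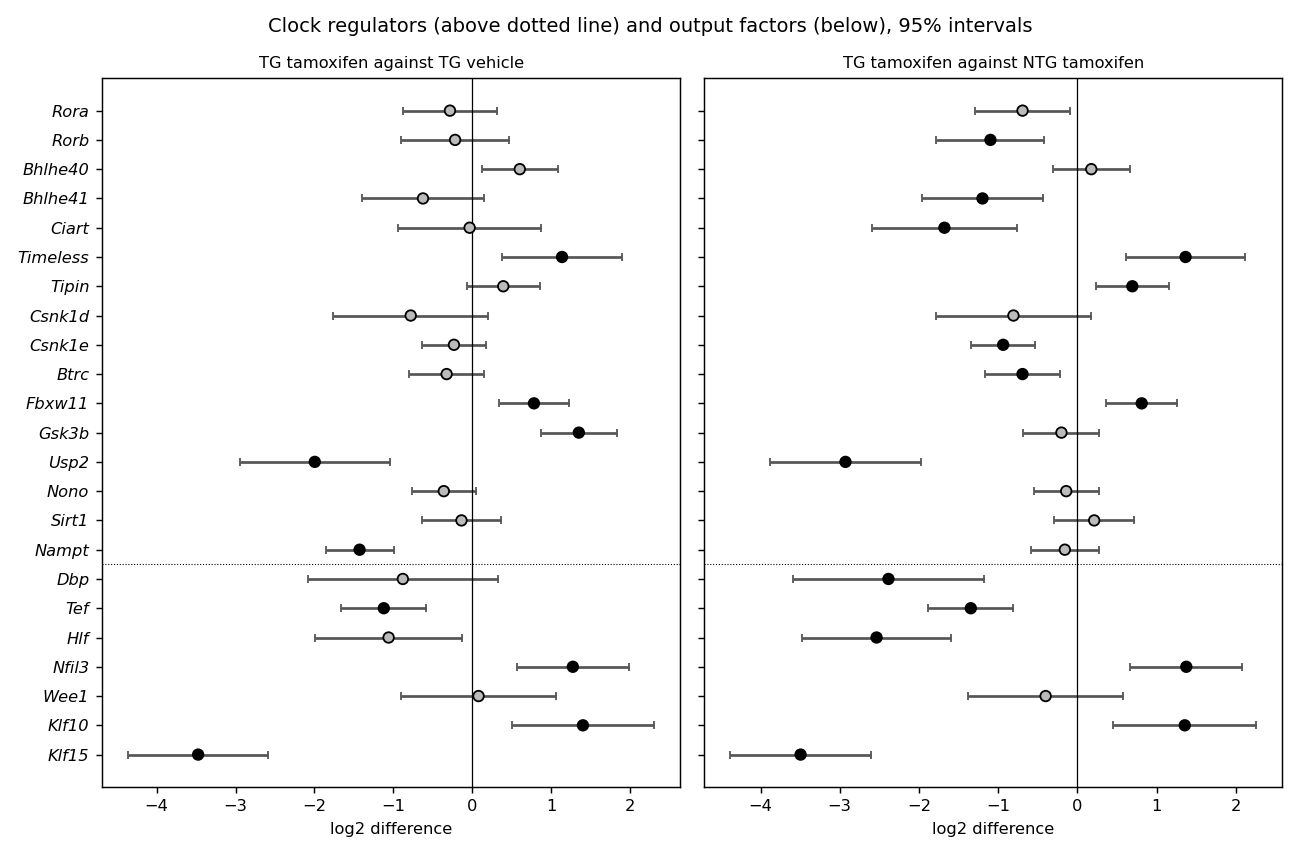
Log2 differences (horizontal axes) with 95% intervals of the 16 tested clock regulators (above the dotted line) and 7 output factors (below it), in TG tamoxifen against TG vehicle on the left and against NTG tamoxifen on the right; filled circles were called. Klf15 is farthest below 0 in both panels, and Nfil3 and Klf10 lie above 0 in both.

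Glucocorticoid-responsive genes were listed because Per1 is induced by glucocorticoids as well as by the clock. Of 8 tested, Mt2 rose in TG tamoxifen against TG vehicle (2.31 ± 0.76, adjusted p = 0.0465) and 3 fell: Dusp1 by 1.08 (SE 0.23, adjusted p = 0.00791), Sgk1 by 0.64 (SE 0.16, adjusted p = 0.0173) and Tsc22d3, also called Gilz, by 0.68 (SE 0.20, adjusted p = 0.0275). Over all genes 10.4% were higher and 14.4% lower. Per1 rose in that comparison. In NTG tamoxifen against NTG vehicle and in TG vehicle against NTG vehicle 0 of the 8 were called, where 4.32% and 3.63% of all genes were. Against NTG tamoxifen, Dusp1 (-1.40 ± 0.23) and Tsc22d3 (-0.99 ± 0.20) were lower in TG tamoxifen (all genes: 20.5% lower), and the difference between the tamoxifen effects was called for 1, Tsc22d3 (-0.99 ± 0.28).

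Other measures moved with the TG tamoxifen group. The summed level of the 8 ventricular cardiomyocyte markers was 21.11 to 21.15 in TG tamoxifen and 21.26 to 21.34 on all other arrays, with 1 of 8 called lower (Ryr2) against TG vehicle. Of 5 endothelial markers 4 were lower, the sum in NTG vehicle being 15.27 to 15.40, in NTG tamoxifen 14.76 to 15.03, in TG vehicle 14.94 to 15.34 and in TG tamoxifen 14.53 to 14.67. Of 5 macrophage and leukocyte markers 3 were higher, Ptprc, Aif1 and Ccr2, and their sum in NTG vehicle was 14.50 to 14.87, in NTG tamoxifen 14.63 to 15.04, in TG vehicle 14.79 to 15.68 and in TG tamoxifen 15.29 to 15.77. Of the adipocyte list, Adipoq and Ucp1 were not tested, and the 1 tested member, Cidea, was lower. Of 4 fibroblast markers 1 was higher (Col3a1) and 1 lower (Dcn), and 0 were called of the 4 atrial, 3 smooth muscle and 2 red blood cell markers tested. These marker counts are for TG tamoxifen against TG vehicle (all genes: 10.4% higher and 14.4% lower). Other comparisons called some of these last markers. The smooth muscle markers Myh11 and Tagln were lower in TG tamoxifen than in NTG tamoxifen (all genes: 20.5% lower). In TG vehicle against NTG vehicle Myh11 was lower and the red blood cell marker Hbb-b2 higher (all genes: 2.24% and 1.39%). The beta-actin control probes gave a 3' over 5' ratio, which rises as RNA degrades, of 2.12 to 2.43 in NTG vehicle, 1.78 to 1.97 in NTG tamoxifen, 1.32 to 1.68 in TG vehicle and 1.75 to 1.88 in TG tamoxifen. The part of the cell markers in the clock results was not tested. With the actin ratio as a covariate, 7 clock genes were still called in TG tamoxifen against NTG tamoxifen, where the ratios overlap (41.5% of all genes). In TG tamoxifen against TG vehicle 0 were, where 5 genes in all were. In TG vehicle against NTG vehicle and in NTG tamoxifen against NTG vehicle 0 were, where 0 genes in all were. In each of these comparisons the ratios of the groups do not overlap.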

How the data were processed

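Left ventricular RNA of 12 mice was read on 12 arrays. The authors deposited a linear intensity for each probe set on each array. With 2% trimmed from either end, the mean intensity was 2500.02 on each array, so the values had been scaled to 1 target. The sources used here do not name the scanning and summarisation software. Detection calls were not used, and the number of arrays limits the precision. Array medians ran from 648 to 834 and spanned 0.363 log2, over the limit of 0.2, so the log2 values, log2(deposited intensity + 16), were quantile normalized. The offset understates differences of dim genes.

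Of 45101 probe sets, 64 were controls, 34945 had 1 symbol, 932 several and 9160 none; genes were named from those with 1, and 204 kept the platform's symbol for want of a RefSeq entry. The probe set with the highest mean stood for a gene, and genes below the 50th percentile (an intensity of 670.3) were left out, which left 11166. limma 3.58.1 in R 4.3.3 (lmFit, eBayes, two-sided) fitted 4 group means over all arrays, with 8 residual and 3.55 prior degrees of freedom. The ± beside a difference is the SE, and intervals are at 95%. An exact permutation test of 3 against 3 cannot go below 0.1 and was not used. The steps were tested on simulated data.

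The clock genes and the lists of regulators, output factors, glucocorticoid-responsive genes and cell markers were chosen with earlier results of these data known. Some listed regulators are not reported here. Named genes were the 10 members, Esr1, Atf6 and Hspa5, up to 5 called genes per list by adjusted p in TG tamoxifen against TG vehicle and up to 2 elsewhere, and the 5 genes nearest to Arntl and to Nr1d1. Replicate numbers did not pair the arrays. Alternatives covered the offset, scaling, filter, choice of probe set, arrays in the fit, the array with conflicting labels, a replicate block, the actin ratio, the variance prior and each array left out.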

Additional observations from a re-analysis of the deposited data

How the results depend on the processing

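Each result was recomputed under 25 alternatives (24 for the difference between the tamoxifen effects, which has no fit on the groups compared alone). Counts of clock genes called are given first for TG tamoxifen against TG vehicle, then for the drug in NTG, the genotype on vehicle and the genotype on the drug. They were 4, 1, 2 and 7 as reported. No filter gave 1, 0, 0 and 5 and every probe set tested singly 1, 0, 0 and 4, both with more features tested; over all genes without the filter 8.82%, 0.022%, 0.044% and 20.2% were called, against 24.8%, 4.32%, 3.63% and 39.5% as reported. The mean of a gene's probe sets gave 2, 0, 1 and 6, only the groups compared 3, 0, 0 and 6, and counting TG vehicle 3 as TG tamoxifen 0, 0, 0 and 5. In that last setting 0%, 0.878%, 0% and 27.7% of all genes were called. With the mean of probe sets the shares were 17.8%, 1.24%, 0.806% and 31.5%. With only the groups compared they were 21.4%, 0.188%, 0.152% and 33.4%. Of all probe sets tested singly, 3.1%, 0.0666%, 0.198% and 13.7% were called. Without TG vehicle 3 and NTG tamoxifen 1 there were 7, 1, 1 and 8 (24.9%, 2.65%, 0.967% and 43% of all genes). For the difference between the effects there were 2 (Per2 and Per3, with 20.2% of all genes). The actin ratio covariate gave 0, 0, 0 and 7 (0.0448%, 0%, 0% and 41.5% of all genes). The lowest offset gave 4, 0, 2 and 7, and its shares of all genes are not given here. The deposited scaling gave 5, 1, 3 and 7 (26.8%, 4%, 4.14% and 40.6% of all genes), with 3 higher and 2 lower in the first. The replicate block gave 4, 0, 1 and 7 (22.1%, 1.28%, 0.815% and 37.9% of all genes). The replicate numbers share no more than a number, since the correlations of same-numbered arrays ran from -0.087 to 0.092 over 18 pairs.

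Leaving out 1 array gave 1 to 7, 0 to 1, 0 to 4 and 5 to 7 calls, and 0 to 1 for the difference between the effects. The shares of all genes called changed as well. Without the array labelled NTG tamoxifen 1 the counts were 7, 1, 4 and 7 (29.3%, 3.75%, 7.28% and 42.9% of all genes). Without TG tamoxifen 2 they were 1, 0, 1 and 5 (15.6%, 2.41%, 1.32% and 31.9%). For the difference between the effects these settings called 22.8% and 8.53% of all genes. In TG tamoxifen against TG vehicle the count was 1 without TG tamoxifen 1, 2 or 3 or without TG vehicle 2. There Per1 passed under 23 of the 25 alternatives, Clock under 15, Per2 under 14 and Cry1 under 10, and Cry1 was lost when any 1 of 9 arrays was left out. Per1 passed under 17 in TG vehicle against NTG vehicle and Per3 under 8. Nr1d2 in NTG tamoxifen against NTG vehicle passed under 8, missing when any 1 of 9 arrays was left out.

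Signs turned for values that had not been called. Median centring turned Per3 (-0.0606) and Nr1d1 (-0.0573) in NTG tamoxifen against NTG vehicle, Clock in TG vehicle against NTG vehicle (-0.0315) and Nr1d2 in TG tamoxifen against NTG tamoxifen (0.14). The mean of probe sets turned Per3 in NTG tamoxifen against NTG vehicle (-0.27), Nr1d2 in TG tamoxifen against NTG tamoxifen (0.60), and the difference between the effects of Arntl (-0.22) and Per2 (0.20). TG vehicle 3 grouped as TG tamoxifen turned Cry2 (-0.0796) and Nr1d1 (0.27) in TG tamoxifen against TG vehicle and the difference between the effects of Nr1d1 (0.12). Without TG vehicle 3 and NTG tamoxifen 1, Nr1d1 in TG tamoxifen against TG vehicle was 0.0172, Arntl and Cry1 in NTG tamoxifen against NTG vehicle were -0.79 and -0.19, and Cry2 in TG tamoxifen against NTG tamoxifen was -0.13. The actin ratio covariate gave 0.37 for Nr1d1 in TG tamoxifen against TG vehicle, 0.70 for Clock, -0.35 for Per3 and -0.53 for Nr1d1 in NTG tamoxifen against NTG vehicle, and -0.0665 for Clock, -1.08 for Cry1 and 0.90 for Nr1d1 in the difference between the effects. Leaving out 1 array, NTG tamoxifen against NTG vehicle ran from -0.79 to 1.86 for Arntl, -0.32 to 0.22 for Clock, -0.19 to 0.55 for Cry1 and -0.0167 to 0.32 for Nr1d1. Clock in TG vehicle against NTG vehicle ran from -0.28 to 0.57, Nr1d1 in TG tamoxifen against TG vehicle from -0.78 to 0.0172, and Cry2 and Nr1d2 in TG tamoxifen against NTG tamoxifen from -0.13 to 0.53 and from -0.73 to 0.18. Where no value above shows the cause, the cause was not tested.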
